A study of Mus musculus with 30 samples.

Results

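Of the 13 protein-coding genes of mouse mitochondrial DNA, 7 are described here in WT and Abcb10-null MEL cells, namely mt-Nd1, mt-Nd2, mt-Nd4, mt-Nd5 and mt-Nd6 (complex I), mt-Cytb (complex III) and mt-Co1 (complex IV). They were chosen by their measured counts, since the other mitochondria-encoded mRNAs had almost no assigned reads, and they are 7 of the 54532 rows of the count table. The choice rested on the summed counts and not on a difference between groups, but it was made with earlier results of these data known. MEL cells are a mouse erythroleukemia line (here the DS19 clone) that makes hemoglobin when treated with DMSO. Total RNA was sequenced from untreated WT cells (day 0), from WT cells that had spent 2 or 5 days in medium with 1.5% DMSO, and from Abcb10-null cells at the same 3 times, untreated at day 0 and in 1.5% DMSO at days 2 and 5, with 5 libraries labelled as biological replicates in each of the 6 groups. The Abcb10-null cells lack a mitochondrial inner membrane transporter and came from a single clone made with a CRISPR/Cas9 lentivirus directed at exon 1, so that the genotype and the clone cannot be told apart.

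Mitochondrial DNA is a small circle that is read from promoters on both strands into long RNAs, which are then cut at the tRNAs that lie between most of the genes. Most mRNAs come from the heavy-strand promoter, and mt-Nd6 is the only protein-coding gene read from the other strand, so that members of one precursor part company mainly through processing, stability and decay. The proteins are made on mitochondrial ribosomes and join subunits encoded in the nucleus to form the respiratory complexes, of which complexes III and IV also carry heme. Fragments of mitochondrial DNA have been copied into the nuclear genome many times, and a short read from such a stretch can match both places.

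The 7 genes are single-exon, protein-coding genes of chrM in GRCm38 (GENCODE M21 annotation). In genome order mt-Nd1 is at chrM:2751-3707, mt-Nd2 at chrM:3914-4951, mt-Co1 at chrM:5328-6872, mt-Nd4 at chrM:10167-11544 and mt-Nd5 at chrM:11742-13565. They are followed by mt-Nd6 at chrM:13552-14070 and mt-Cytb at chrM:14145-15288. The others are on the annotated plus strand and mt-Nd6 is on the minus strand. The first 60 bases of each are shown because they tell the reading frames apart, with the first codon in capitals.
mt-Nd1: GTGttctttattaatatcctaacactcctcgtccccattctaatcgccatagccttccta
mt-Nd2: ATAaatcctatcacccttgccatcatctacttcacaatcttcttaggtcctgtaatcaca
mt-Nd4: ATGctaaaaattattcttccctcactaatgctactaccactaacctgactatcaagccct
mt-Nd5: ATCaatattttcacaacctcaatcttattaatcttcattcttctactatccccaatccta
mt-Nd6: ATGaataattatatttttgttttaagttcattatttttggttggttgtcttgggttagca
mt-Cytb: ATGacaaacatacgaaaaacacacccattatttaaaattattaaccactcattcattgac
mt-Co1: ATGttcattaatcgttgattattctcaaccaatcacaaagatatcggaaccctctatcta
Of the 7, 4 open with ATG, whereas mt-Nd1, mt-Nd2 and mt-Nd5 open with GTG, ATA and ATC, which the mitochondrial code also reads as starts. The strand of origin shows in the base composition, because mt-Nd6 was 43.7% T and 5.97% C, whereas the other 6 transcripts were 23.8% to 27.7% C.

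mt-Nd5 and mt-Nd6 run toward each other and overlap by 14 bases at their ends. Those ends are shown with the overlap in capitals, each in the direction of its own gene, because these bases belong to both genes, on opposite strands.
mt-Nd5: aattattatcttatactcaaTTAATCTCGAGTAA
mt-Nd6: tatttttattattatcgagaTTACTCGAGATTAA
The kit used for the libraries keeps the strand, but whether the counting used it is not given in the sources used here. If the counting did not, reads of the opposite strand would count for a gene along its whole length, mt-Nd6 included.

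Nuclear copies differed strongly between the 13 protein-coding rows. The run gave paired reads of 51 bases, so a fragment may also be placed by its mate, which windows of a single read leave out. Of all 51-base windows of a transcript, the length of a read, 100% were also found in an annotated nuclear transcript for mt-Co2, 99.9% for mt-Co3, 99.5% for mt-Atp6, 98.8% for mt-Nd4l and 98.0% for mt-Nd3. These 5 genes and mt-Atp8, which shared no window with an annotated transcript, held 51 counts in all 30 libraries together, and none had more than 5 counts in a library. The highest of them was mt-Co3 with 26 counts and the next mt-Co2 with 18 counts, while the lowest of the 7 described here, mt-Nd6, had 13739 counts. Among the 7, no window was shared for mt-Nd1, mt-Cytb and mt-Nd6, and 7.22% were shared for mt-Nd5, 8.0% for mt-Nd2, 50.6% for mt-Co1 and 62.2% for mt-Nd4. The search covered annotated transcripts and not the whole genome, so a gene without a shared window may still have a nuclear copy. The neighbours of mt-Atp8, mt-Co2 and mt-Atp6, have copies at chr1:24614885-24615565 and chr1:24613974-24614651. Whether a copy of mt-Atp8 lies between them was not tested.

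**Figure D1:**
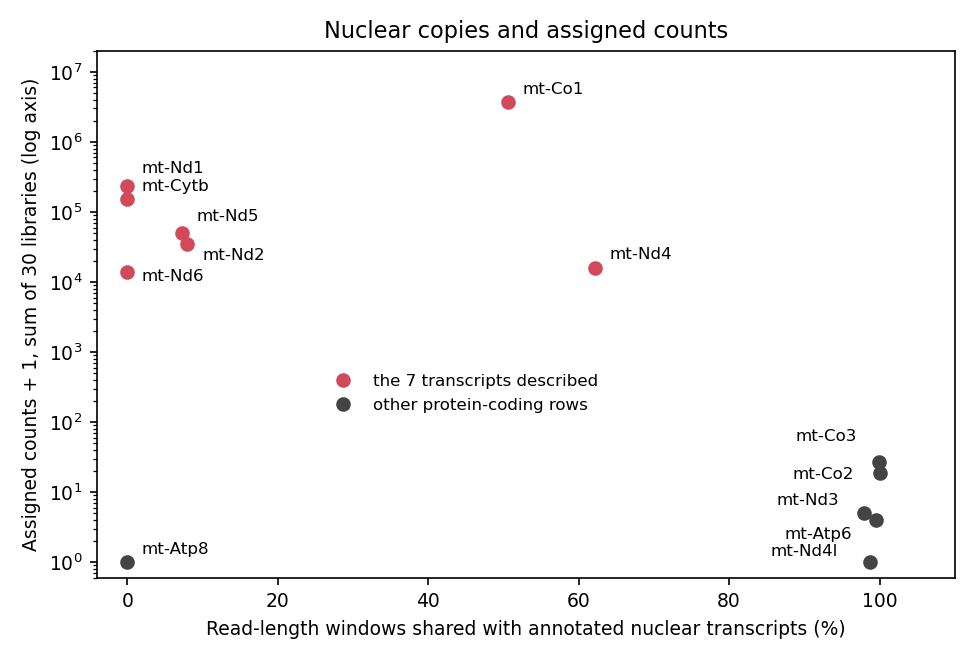
Percent of 51-base windows that a mitochondria-encoded protein-coding transcript shares with annotated nuclear transcripts (x axis) against its assigned counts plus 1, summed over 30 libraries, on a log axis (y axis). Of the 6 rows left out (dark), 5 lie at 98.0% or more shared windows with at most 26 counts, mt-Atp8 lies at 0 on both axes before the 1 is added, and the 7 described (red) hold 13739 counts or more.

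The closest long copy of mt-Co1 is Gm13340, which is on the minus strand of chr2:22588103-22589647 and differed from it at 37 of 1545 bases (97.6% identity). A second copy, Gm29216 on chr1, covered the last 492 bases with 6 differences. The 80-base window with the most differences between mt-Co1 and Gm13340 is shown because reads from such a window can be placed, with the 5 differing bases in capitals. It lies at chrM:5782-5861 and on the minus strand of chr2:22589114-22589193.
mt-Co1: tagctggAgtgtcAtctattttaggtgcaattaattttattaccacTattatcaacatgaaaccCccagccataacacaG
Gm13340: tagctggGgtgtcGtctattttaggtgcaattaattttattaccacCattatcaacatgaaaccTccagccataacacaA
All 14 nuclear copies with a shared window held 21161 counts together, against 3672346 counts for mt-Co1 alone. How reads with more than 1 match were counted is not given in the sources used here, so the levels of mt-Co1 and mt-Nd4 are uncertain by the reads that such windows lost.

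The libraries held 9906783 to 20157768 assigned counts, and the lowest count of any of the 7 transcripts in a library was 103, so counting error was small beside the spread between libraries. Levels are given as CPM, the counts brought to one common library size after TMM scaling, which corrects for a few abundant RNAs taking a larger share. Abcb10 itself, as a check of the labels, was at 119 ± 5.65 CPM for WT and 74.3 ± 4.82 CPM for Abcb10-null cells at day 0, and at 1223 ± 45.6 and 212 ± 30.2 CPM at day 5 (SD, n = 5 each). Of the 10 erythroid markers, 9 or 10 had a mean over 1 CPM in every group, as did 2 to 4 of 8 myeloid, 3 or 4 of 5 megakaryocyte and none of 6 lymphoid markers. The summed erythroid markers ranged from 9719 to 21502 CPM in WT and from 4737 to 6018 CPM in the Abcb10-null libraries at day 5. The myeloid markers also separated the genotypes at day 5, with a sum of 13.5 to 17.1 CPM in WT and 33.0 to 48.98 CPM in the Abcb10-null libraries, and they overlapped at day 0. The megakaryocyte markers summed to between 154.5 and 605 CPM and overlapped between the genotypes at each day. The part of these markers in the differences was not tested. In bulk RNA, fewer cells of a kind and less RNA per cell cannot be told apart.

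A pair of day-5 libraries stood apart for several of the 7 transcripts. Abcb10-null replicate 4 was the highest of its group for all 7, and mt-Nd6 was at 87.5 CPM there against 5.83 to 15.7 CPM in the other 4 libraries of the group. WT replicate 5 was the lowest of its group for 6 of the 7, mt-Co1 being the exception, and its erythroid markers summed to 9719 CPM where the other 4 WT libraries had 18148 CPM or more. Tests of the 7 transcripts that involve day 5 are therefore also given without the library concerned.

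Per length, the level of the 7 transcripts over all 30 libraries ran from 24.9 CPM per kb for mt-Nd4 to 4961 CPM per kb for mt-Co1. mt-Nd6, mt-Nd5 and mt-Nd2 lay close together, at 55.9, 56.5 and 69.9 CPM per kb, and mt-Cytb and mt-Nd1 were higher, at 279 and 504 CPM per kb. The low place of mt-Nd4 rested on the length used, because per 1000 windows not shared with a nuclear transcript it was at 68.2 CPM, above mt-Nd6 at 61.9 and mt-Nd5 at 62.6 CPM. On that scale mt-Co1 was at 10386 CPM, still the highest of the 7. The scale takes reads with several matches as dropped, which is not known, and leaves out placement by the mate. mt-Co1 held 87.9% of the 4175674 counts of the 7 transcripts, so the share of a library that the 7 took was mostly the share of mt-Co1.

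That share, a description with no test, was 0.772% ± 0.107 for WT and 0.683% ± 0.0909 for Abcb10-null cells at day 0, 1.01% ± 0.242 and 0.873% ± 0.0777 at day 2, and 1.02% ± 0.106 and 0.882% ± 0.112 at day 5 (SD, n = 5 each). Without mt-Co1 it was 0.157% ± 0.0198 for WT and 0.0754% ± 0.0193 for Abcb10-null cells at day 0, 0.131% ± 0.0185 and 0.110% ± 0.0335 at day 2, and 0.10% ± 0.0262 and 0.0524% ± 0.0256 at day 5. The 7 transcripts together thus took a larger share at day 5 than at day 0 in both genotypes, whereas the 6 without mt-Co1 took a smaller one.

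**Figure D2:**
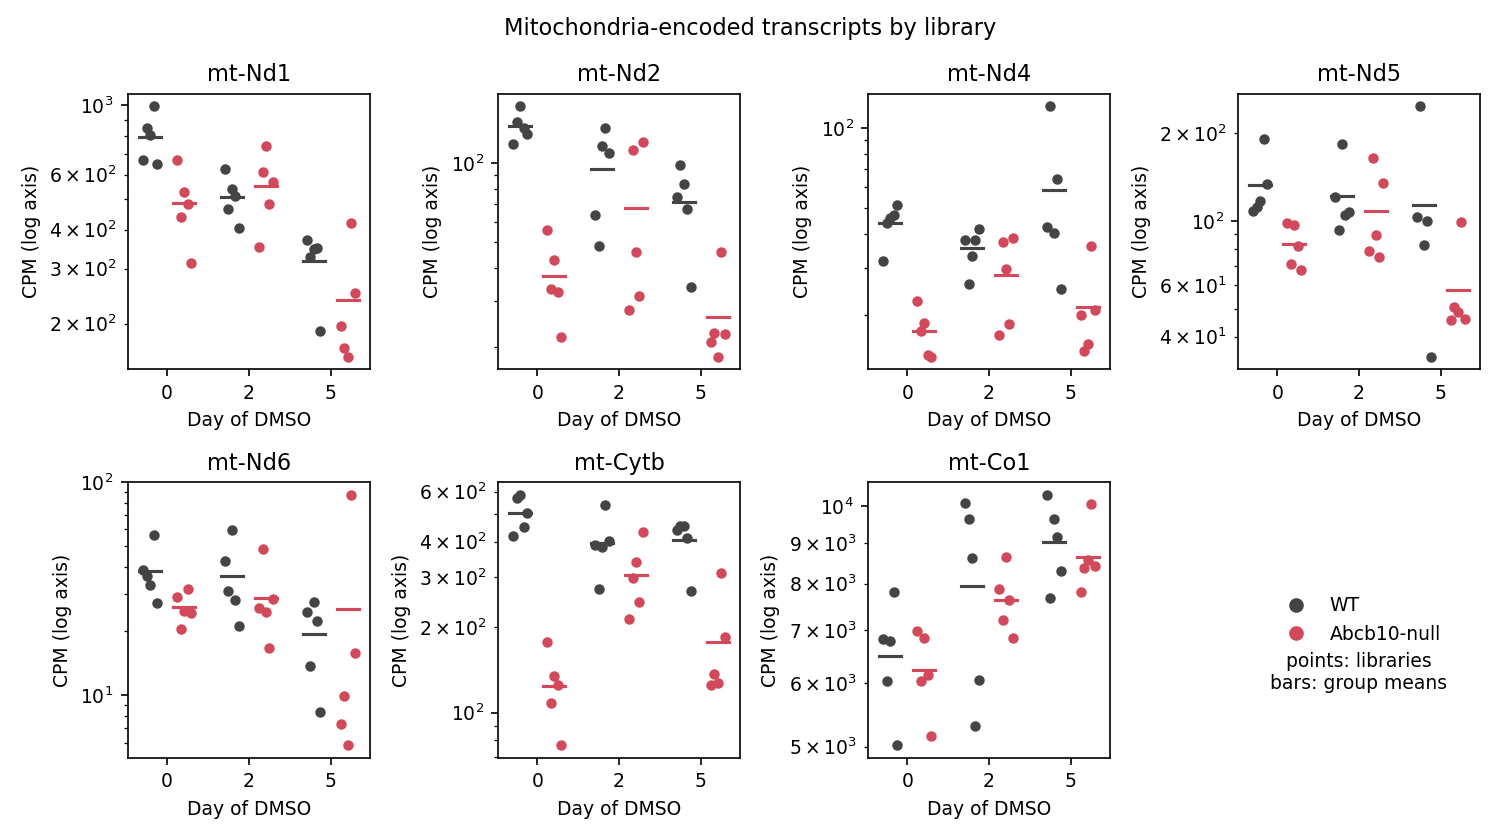
CPM of each transcript on a log axis (y axis) by day of DMSO (x axis), with WT in dark and Abcb10-null in red, a point per library and a bar at the mean of 5 libraries. At day 0 the Abcb10-null points lie below all WT points for mt-Nd2, mt-Nd4, mt-Nd5 and mt-Cytb, while those of mt-Co1 are mixed, and Abcb10-null replicate 4 of day 5 stands above its group for mt-Nd6 at 87.5 CPM.

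The first question was how the genotypes differed before differentiation. At day 0, 6 of the 7 transcripts were lower in Abcb10-null than in WT cells by edgeR's quasi-likelihood test with Benjamini-Hochberg adjustment over 12912 genes, where 36.0% of all genes tested passed in either direction. The largest differences were in mt-Cytb, the heme-carrying core of complex III, and in mt-Nd2, a proton-pumping subunit of the membrane arm of complex I. mt-Co1, the catalytic subunit of complex IV, was the one that did not pass. Over the 7 transcripts the log2 fold change had a median of -0.71, beside -0.0019 over all genes tested, and the groups did not overlap for 4 of the 7. How many of all genes were free of overlap was not counted at any day, so such counts have no background here.

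mt-Cytb was at 419, 568.4, 586, 450.4 and 505 CPM in the WT libraries of day 0, and at 177, 108, 134, 125 and 76.7 CPM in the Abcb10-null libraries. The highest Abcb10-null library was well under the lowest WT library, and the log2 fold change was -2.03 ± 0.16 (SE), with an adjusted p of 1e-08 in edgeR. mt-Nd2 was at 118, 143, 165, 136 and 129 CPM in WT and at 55.5, 33.4, 43.0, 32.5 and 21.9 CPM in the Abcb10-null libraries. These groups were also apart, by -1.90 ± 0.17 on the log2 scale (edgeR, adjusted p = 7.06e-08).

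mt-Nd4, another proton-pumping subunit of complex I, was at 31.8, 44.0, 46.2, 47.5 and 51.7 CPM in WT and at 22.4, 17.5, 18.7, 14.2 and 13.9 CPM in the Abcb10-null libraries. All 5 Abcb10-null libraries were under all 5 WT libraries, with a log2 fold change of -1.35 ± 0.14 (edgeR, adjusted p = 3.66e-07). mt-Nd5, the largest of the proton-pumping subunits, was at 108, 112, 117, 191 and 134 CPM in WT and at 98.5, 71.2, 97, 81.7 and 68.0 CPM in the Abcb10-null libraries. The gap between its groups was narrower, and the log2 fold change was -0.67 ± 0.14 (edgeR, adjusted p = 0.000978).

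The remaining complex I members overlapped between the genotypes. mt-Nd1, which lies where the membrane arm meets the ubiquinone site, was at 670.2, 848, 802, 996 and 649.9 CPM in WT and at 668, 438, 529, 483 and 312 CPM in the Abcb10-null libraries. A single Abcb10-null library, replicate 1, reached into the WT range, and the log2 fold change was -0.71 ± 0.15 (edgeR, adjusted p = 0.00117). mt-Nd6, the member read from the light-strand promoter, was at 38.8, 36.3, 32.9, 56.3 and 27.1 CPM in WT and at 28.8, 20.5, 24.9, 31.5 and 24.3 CPM in the Abcb10-null libraries. Of the Abcb10-null libraries, 2 lay above the lowest WT library, and the log2 fold change was -0.56 ± 0.15 (edgeR, adjusted p = 0.0073).

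mt-Co1 was at 6819, 6040, 6774, 7806 and 5019 CPM in WT and at 6984, 6050, 6850, 6156 and 5149 CPM in the Abcb10-null libraries. The ranges lay inside each other, and the log2 fold change was -0.06, with a 95% interval of -0.27 to 0.15 (edgeR, adjusted p = 0.656). The miss of the threshold does not show that the genotypes were alike, but the interval holds no fold change of the size seen in the 6 others, whose values ran from -2.03 to -0.56.

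Other RNAs moved with the day-0 difference, and their part in it was not tested. Nuclear-encoded small non-coding RNA genes took 3.45% to 4.99% of the counts in the WT libraries of day 0 and 0.969% to 2.08% in the Abcb10-null libraries, with no overlap. Mitochondrial rRNA, which the library kit removes in part, took 0.174% to 0.403% in WT and 0.0635% to 0.339% in Abcb10-null cells. Within the Abcb10-null group, replicate 5 was the lowest in small non-coding RNA, in mitochondrial rRNA and in 6 of the 7 transcripts, mt-Nd6 being the exception. Calls for mt-Nd5 and mt-Nd6 were lost when all 30 libraries shared an estimate of the spread (edgeR, adjusted p = 0.181 and 0.503).

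**Figure D3:**
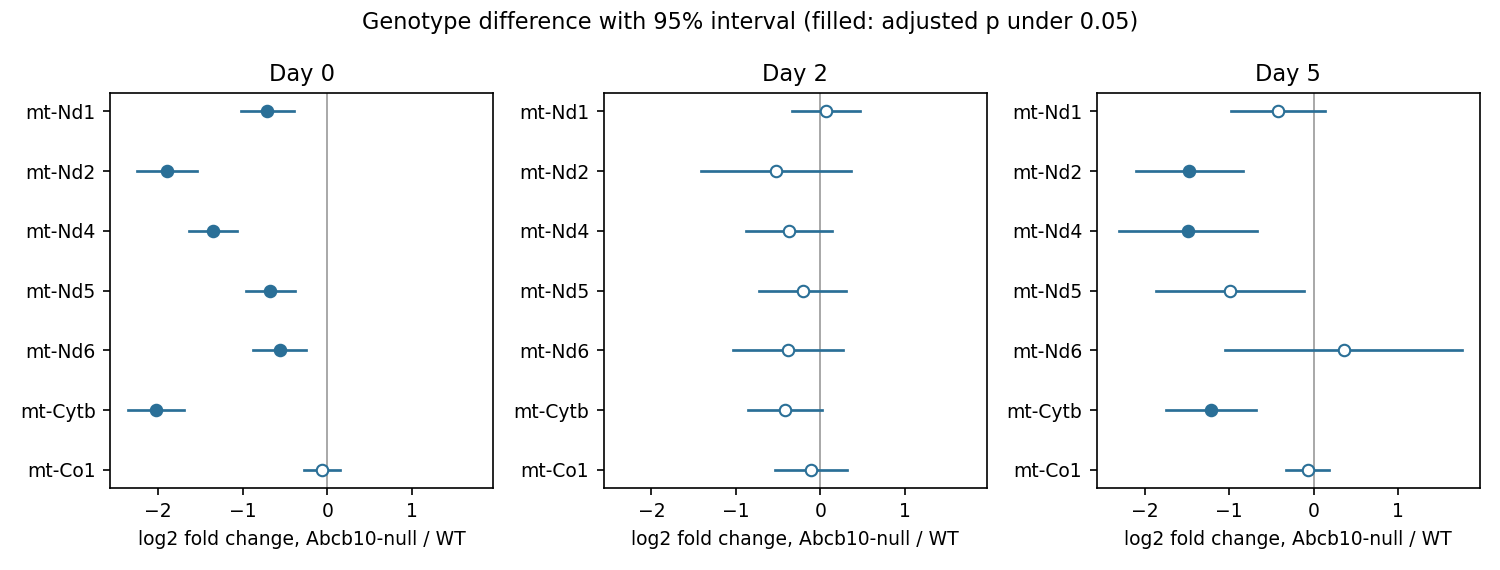
Log2 fold change of Abcb10-null over WT cells (x axis) for each transcript at days 0, 2 and 5, with the 95% interval as a line and a filled point where the adjusted p was under 0.05. At day 0 all but mt-Co1 are filled and negative, at day 2 none is filled, and at day 5 mt-Nd2, mt-Nd4 and mt-Cytb are filled and mt-Nd6 has an interval from -1.05 to 1.76.

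At day 2 none of the 7 passed the edgeR test between the genotypes, where 31.8% of 13053 genes did. None had an unadjusted p under 0.05, and DESeq2 also called 0 of the 7. Of the 7, 6 had a log2 fold change below 0, from -0.53 for mt-Nd2 to 0.07 for mt-Nd1, and the genotypes overlapped for all 7. The 95% intervals were wide enough to hold a sizeable loss, for example -0.85 to 0.02 for mt-Cytb and -1.42 to 0.36 for mt-Nd2.

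The spread at day 2 came from libraries within each genotype. mt-Nd2 was at 27.6, 112, 46.1, 31.3 and 120.0 CPM in the Abcb10-null libraries and at 63.6, 48.5, 116, 136 and 109 CPM in WT. Replicates 2 and 5 of the Abcb10-null group were as high as the upper WT libraries, and replicates 1 and 2 of WT were the low ones. mt-Cytb was at 214, 298, 339, 245 and 432 CPM in the Abcb10-null libraries and at 388, 273, 382, 536 and 401 CPM in WT. The share of nuclear-encoded small non-coding RNA split the same libraries, at 4.64% and 6.08% in Abcb10-null replicates 2 and 5 and 1.74% to 2.83% in the other 3, and at 2.71% and 2.62% in WT replicates 1 and 2 and 5.06% to 5.61% in the other 3. Its part in the spread was not tested. Without Abcb10-null replicate 5, mt-Cytb was lower in Abcb10-null cells by -0.57 on the log2 scale (edgeR, adjusted p = 0.0374), so this count of 0 rests on that library.

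mt-Co1 at day 2 was at 10109, 9637, 8629, 5308 and 6060 CPM in WT, with replicates 4 and 5 far under the others, and at 7884, 7206, 8635, 7632 and 6842 CPM in the Abcb10-null libraries. The Abcb10-null range lay within the WT range, and the log2 fold change was -0.11, with an interval of -0.53 to 0.31 (edgeR, adjusted p = 0.69).

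At day 5, 3 of the 7 were lower in Abcb10-null cells, mt-Nd2, mt-Nd4 and mt-Cytb, where 37.6% of 12676 genes passed the same edgeR test. These are the same 3 that had the largest differences at day 0. Over the 7 transcripts the log2 fold change had a median of -0.99 beside -0.016 over all genes tested. Genotypes overlapped for all 7 with all libraries kept.

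mt-Nd2 at day 5 was at 74.0, 98.6, 83.3, 67.1 and 33.8 CPM in WT and at 20.96, 22.7, 18.4, 46.1 and 22.4 CPM in the Abcb10-null libraries. Only WT replicate 5 and Abcb10-null replicate 4 crossed, and the log2 fold change was -1.48 ± 0.29 (edgeR, adjusted p = 0.00186). mt-Cytb was at 441, 454, 455, 413 and 268 CPM in WT and at 125, 137, 127, 311 and 184 CPM in the Abcb10-null libraries. The same pair of libraries crossed, and the log2 fold change was -1.22 ± 0.25 (edgeR, adjusted p = 0.00217).

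mt-Nd4 was at 42.8, 121, 40.6, 64.7 and 25.05 CPM in WT and at 19.9, 14.6, 15.5, 36.2 and 20.8 CPM in the Abcb10-null libraries, a log2 fold change of -1.48 ± 0.38 (edgeR, adjusted p = 0.00834). WT replicate 2 was high for it and for mt-Nd5, which was at 103, 248, 82.5, 100.0 and 34.1 CPM in WT and at 45.8, 50.6, 48.8, 99.5 and 45.9 CPM in the Abcb10-null libraries. mt-Nd5 did not pass, with a log2 fold change of -0.99 and an interval of -1.87 to -0.11 (edgeR, adjusted p = 0.0703). Without WT replicate 2 it was at -0.49 (edgeR, adjusted p = 0.235) and mt-Nd4 at -1.05 (edgeR, adjusted p = 0.0127). Without WT replicate 5 instead, mt-Nd5 was at -1.24 (edgeR, adjusted p = 0.00981).

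The small mitochondrial rRNA moved with the day-5 difference, and its part in it was not tested. mt-Rnr1 was at 678, 2070, 633, 1090 and 426 CPM in WT and at 291, 314, 275.2, 339 and 269 CPM in the Abcb10-null libraries of day 5. All 5 Abcb10-null libraries lay below all WT libraries, by -1.74 on the log2 scale (edgeR, adjusted p = 0.00172), and WT replicate 2 was the highest for mt-Rnr1 as for mt-Nd4 and mt-Nd5.

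mt-Nd1 and mt-Nd6 did not pass at day 5 either. mt-Nd1 was at 370.3, 326, 347, 348 and 189 CPM in WT and at 197, 167, 156, 421 and 251 CPM in the Abcb10-null libraries, with a log2 fold change of -0.42 and an interval of -0.98 to 0.14 (edgeR, adjusted p = 0.219). mt-Nd6 was at 24.7, 13.7, 27.5, 22.3 and 8.37 CPM in WT and at 7.33, 9.96, 5.83, 87.5 and 15.7 CPM in the Abcb10-null libraries. With a single library at 87.5 CPM its log2 fold change was 0.35 and its interval ran from -1.05 to 1.76 (edgeR, adjusted p = 0.697).

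Leaving out Abcb10-null replicate 4 and WT replicate 5 together, a choice made after the data were seen, 6 of the 7 were lower in Abcb10-null cells at day 5. Calls over all genes rose as well, to 5501 of 12715 from 4769 of 12676 with all libraries kept. The log2 fold changes were then -0.87 for mt-Nd1, -1.95 for mt-Nd2, -1.95 for mt-Nd4, -1.50 for mt-Nd5, -1.64 for mt-Cytb and -1.20 for mt-Nd6, with adjusted p from 3.5e-06 to 0.00828 in edgeR. mt-Nd6 thus changed sign with these libraries, and without Abcb10-null replicate 4 alone it was at -1.001 (edgeR, adjusted p = 0.0506) and 5 of the 7 passed. How many of all genes passed without that library alone was not kept. The sign of mt-Nd6 also varied with all libraries kept, from -0.32 to 0.37 under the 8 other alternatives, of which 0 called it. mt-Co1 was at -0.17 on the log2 scale without the pair (edgeR, adjusted p = 0.269).

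mt-Co1 with all libraries kept was at 10348, 7683, 9653, 9155 and 8288 CPM in WT and at 7801, 8373, 8562, 10071 and 8412 CPM in the Abcb10-null libraries at day 5. Its groups overlapped fully, and the log2 fold change was -0.07, with an interval of -0.33 to 0.19 (edgeR, adjusted p = 0.666). At none of the 3 days did mt-Co1 pass the test between the genotypes.

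The next question was how the transcripts changed as WT cells differentiated. From day 0 to day 5, 4 of the 7 changed in WT cells, where 71.2% of 12723 genes did in edgeR. mt-Nd1, mt-Nd2 and mt-Nd6 fell and mt-Co1 rose, and the median log2 fold change of the 7 was -0.32 beside 0.023 over all genes tested. Between day 0 and day 2, where 62.2% of 12839 genes passed, mt-Nd1 alone fell, and between day 2 and day 5, where 33.4% of 13025 genes passed, it was again mt-Nd1 alone. Without WT replicate 5 of day 5, mt-Nd4 also passed between day 2 and day 5, with a rise of 0.93 (edgeR, adjusted p = 0.0221), and mt-Nd6 passed without replicate 5 of day 2 or replicate 3 of day 5, at -1.06 and -1.07. Between day 0 and day 2 more than 1 of the 7 passed without replicate 1 of day 0 (3 of the 7) or without replicate 3, 4 or 5 of day 2 (2, 4 and 2 of the 7). How many of all genes passed in these fits was not kept, so these counts have no background here. The comparisons between days share the libraries of a day, so they are not independent of each other.

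mt-Nd1 fell at each step in WT cells. Its 5 libraries of day 2 were at 624, 465, 539, 512 and 405 CPM, all below the lowest library of day 0, a log2 fold change of -0.64 ± 0.13 (edgeR, adjusted p = 0.00103). All 5 libraries of day 5, at 370.3 CPM or less, were below the lowest library of day 2, with a further change of -0.68 ± 0.18 (edgeR, adjusted p = 0.0112). From day 0 to day 5 it fell by 1.33 on the log2 scale (edgeR, adjusted p = 1.83e-05). Without replicate 5 of day 5 the values were -0.52 from day 2 and -1.19 from day 0 (edgeR, adjusted p = 0.00679 and 1.56e-06).

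The other WT changes passed only over the whole course in this test with all libraries kept. Of the 8 other alternatives, 5 called mt-Nd6 from day 2 to day 5, with values of -1.03 to -0.89 over the 8. From day 0 to day 2, 3 of the 8 called mt-Nd2, with values of -0.66 to -0.34. mt-Nd2 fell by 0.95 on the log2 scale from day 0 to day 5 (edgeR, adjusted p = 0.00145), from 118 to 165 CPM at day 0 to 33.8 to 98.6 CPM at day 5, with no overlap. mt-Nd6, at 42.6, 30.9, 59.7, 28.1 and 21.1 CPM at day 2, fell by 0.99 over the course (edgeR, adjusted p = 0.00712), and its groups overlapped by 1 library of day 5. The fit of all 30 libraries together did not call it (edgeR, adjusted p = 0.0659). Without replicate 5 of day 5, mt-Nd2 was at -0.78 and mt-Nd6 at -0.80 (edgeR, adjusted p = 8.59e-05 and 0.00547).

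mt-Co1 rose in WT cells from day 0 to day 5 by 0.47 ± 0.14 on the log2 scale (edgeR, adjusted p = 0.00698), with 4 of 5 libraries of day 5 above all those of day 0. mt-Cytb and mt-Nd5 were at -0.32 and -0.22 and mt-Nd4 at 0.41, and none of them passed. These 3 depended on single libraries of day 5. mt-Nd5 was at -0.73 without replicate 2 (edgeR, adjusted p = 0.0238) and at 0.0091 without replicate 5 (edgeR, adjusted p = 0.979). mt-Nd4 was at -0.03 without replicate 2 and at 0.60 without replicate 5, and passed in neither case (edgeR, adjusted p = 0.908 and 0.0634). mt-Cytb passed without replicate 2 of day 5, at -0.36, or replicate 1 of day 0, at -0.41 (edgeR, adjusted p = 0.0457 and 0.0401), and was at -0.20 without replicate 5 of day 5 (edgeR, adjusted p = 0.0947). mt-Co1 was at 0.50 without that last library (edgeR, adjusted p = 0.00348). The mitochondrial rRNAs moved the other way from mt-Nd1, since mt-Rnr1 rose by 1.59 and mt-Rnr2 by 1.50 on the log2 scale (edgeR, adjusted p = 0.00169 and 0.000777), although rRNA was removed from these libraries and its level depends on how completely.

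In Abcb10-null cells, 3 of the 7 rose between day 0 and day 2, namely mt-Cytb, mt-Nd4 and mt-Co1, where 43.1% of 12940 genes passed in edgeR. Between day 2 and day 5, 4 of the 7 fell, mt-Nd1, mt-Nd2, mt-Nd5 and mt-Cytb, where 31.0% of 12797 genes passed. Over the whole course 3 of the 7 changed, mt-Co1 upward and mt-Nd1 and mt-Nd5 downward, where 67.2% of 12915 genes passed.

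mt-Cytb rose by 1.33 ± 0.22 on the log2 scale between day 0 and day 2 in Abcb10-null cells (edgeR, adjusted p = 0.000404). Every library of day 2, from 214 to 432 CPM, was above the highest library of day 0, at 177 CPM. It then fell by 0.79 to day 5 (edgeR, adjusted p = 0.0333), and the call did not survive without any one of 6 libraries, replicates 3 and 5 of day 2 and replicates 1, 2, 3 and 5 of day 5, with adjusted p from 0.0511 to 0.0828.

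mt-Nd4 in Abcb10-null cells was at 16.7, 37.4, 29.6, 18.4 and 38.9 CPM at day 2, and its rise from day 0 was 0.73 ± 0.24 on the log2 scale (edgeR, adjusted p = 0.0254). Replicates 1 and 4 of day 2 stayed within the range of day 0, and the call was lost without replicate 4 or 5 of day 0 or replicate 5 of day 2, with values of 0.59 to 0.66. The rise of mt-Co1 was 0.32 ± 0.12 (edgeR, adjusted p = 0.0409) and was near the threshold, since it was lost without replicate 2, 4 or 5 of day 0 or replicate 1, 3 or 4 of day 2, with values of 0.25 to 0.33. Both lost the call when all 30 libraries were in one fit (edgeR, adjusted p = 0.0575 and 0.107). Of the 8 other alternatives, that fit included, 6 called mt-Nd4 and 4 called mt-Co1.

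mt-Nd1 in Abcb10-null cells was at 351, 612, 742, 484 and 566 CPM at day 2 and fell by 1.21 ± 0.27 on the log2 scale to day 5 (edgeR, adjusted p = 0.0041). Day 5 lay below day 2 except for replicate 4, at 421 CPM, which was above the lowest library of day 2. mt-Nd2 fell by 1.38 ± 0.41 (edgeR, adjusted p = 0.0203), and without replicate 5 of day 2 the value was -1.07 (edgeR, adjusted p = 0.0571), and without replicate 1 of day 5 it was -1.34 (edgeR, adjusted p = 0.051). mt-Nd5 was at 78.9, 164, 89.5, 75.0 and 135 CPM at day 2 and fell by 0.91 ± 0.27 (edgeR, adjusted p = 0.019). mt-Nd6, at 25.6, 48.5, 24.6, 16.7 and 28.3 CPM at day 2, was at -0.20 with an interval of -1.54 to 1.13 (edgeR, adjusted p = 0.833), and without Abcb10-null replicate 4 of day 5 it fell by 1.59 (edgeR, adjusted p = 0.0052). Without that library 5 of the 7 fell from day 2 to day 5, the others being mt-Nd1 at -1.53, mt-Nd2 at -1.70, mt-Nd5 at -1.20 and mt-Cytb at -1.10 (edgeR, adjusted p = 0.000544, 0.01098, 0.00297 and 0.0025). In that fit 3402 of 12952 genes passed, and 1880 of them fell.

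From day 0 to day 5 in Abcb10-null cells, mt-Co1 rose by 0.47 ± 0.09 on the log2 scale (edgeR, adjusted p = 0.000343), and every library of day 5 was above every library of day 0. mt-Nd1 fell by 1.03 ± 0.24 (edgeR, adjusted p = 0.00126) and mt-Nd5 by 0.53 ± 0.19 (edgeR, adjusted p = 0.0226), the latter lost without replicate 1 or 3 of day 0 or replicate 1 or 5 of day 5, with values of -0.47 to -0.45. Without replicate 4 of day 5, 5 of the 7 changed over this interval, with mt-Nd6 at -1.42 and mt-Nd2 at -0.81 added (edgeR, adjusted p = 5.73e-05 and 0.00233), and mt-Nd1, mt-Nd5 and mt-Co1 were then at -1.32, -0.79 and 0.42. In that fit 8822 of 13064 genes passed.

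**Figure D4:**
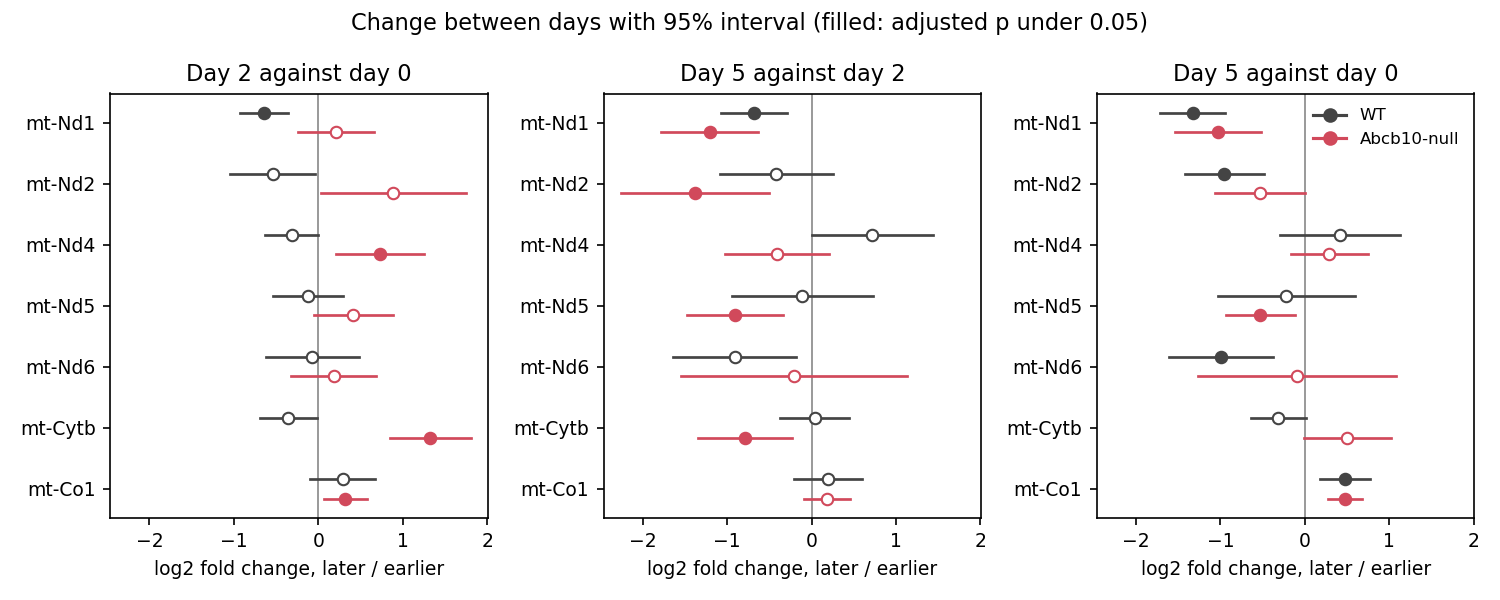
Log2 fold change of the later over the earlier day (x axis) for each transcript within WT (dark) and Abcb10-null cells (red), with the 95% interval as a line and a filled point where the adjusted p was under 0.05. mt-Co1 lies at 0.47 in both genotypes over the whole course, and for mt-Cytb the red point lies at 1.33 from day 0 to day 2 and at -0.79 from day 2 to day 5 while the dark points lie at -0.35 and 0.04.

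Whether the change between days differed between the genotypes was tested as an interaction. From day 0 to day 2 it was positive for 4 of the 7 in edgeR, where 22.8% of 13980 genes passed, that is, these 4 changed more upward in Abcb10-null than in WT cells. The interaction was 1.66 ± 0.28 on the log2 scale for mt-Cytb, 1.41 ± 0.49 for mt-Nd2, 1.03 ± 0.29 for mt-Nd4 and 0.83 ± 0.26 for mt-Nd1 (edgeR, adjusted p = 0.000674, 0.0427, 0.0162 and 0.0264). For mt-Co1 it was 0.01, with an interval of -0.44 to 0.46. This test holds the same day-0 and day-2 libraries as the comparisons above and is not an independent observation. With library totals in place of TMM scaling, mt-Cytb alone passed, and 2 to 4 of the 7 passed when any single library was left out. In these 20 fits without 1 library mt-Cytb and mt-Nd4 always passed, mt-Nd1 passed in 13 and mt-Nd2 in 8. How many of all genes passed in them was not kept.

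From day 2 to day 5 the interaction passed for 0 of the 7 in edgeR, where 4.71% of 13956 genes passed. Of the 7, 2 had an unadjusted p under 0.05, mt-Cytb and mt-Nd4, and DESeq2 also called 0. Without the pair of day-5 libraries that stood apart, 3 of the 7 passed, and 1161 of 14253 genes did. From day 0 to day 5 it passed for mt-Cytb alone, at 0.83 ± 0.31 (edgeR, adjusted p = 0.0476), where 31.5% of 14020 genes passed, and this call was lost without the same pair of libraries, with a value of 0.42 (edgeR, adjusted p = 0.163). When 1 library or the pair was omitted the call was made in 7 of 21 fits, and it was made under 4 of the 8 other alternatives.

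Set in order of the group means, WT day 0 was the highest of the 6 groups for mt-Nd1, mt-Nd2, mt-Nd5, mt-Cytb and mt-Nd6, and WT day 5 for mt-Nd4 and mt-Co1. Abcb10-null day 5 was the lowest for mt-Nd1, mt-Nd2 and mt-Nd5, Abcb10-null day 0 for mt-Nd4, mt-Cytb and mt-Co1, and WT day 5 for mt-Nd6. For each of the 7, neighbours in this order overlapped in their library values at all 5 steps.

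The light-strand transcript was also set against the others within each library, which does not depend on scaling. The log2 ratio of mt-Nd6 to the summed counts of the 6 heavy-strand transcripts was -7.76 ± 0.226 for WT and -8.07 ± 0.252 for Abcb10-null cells at day 0, -8.02 ± 0.429 and -8.33 ± 0.581 at day 2, and -9.13 ± 0.578 and -9.32 ± 1.41 at day 5 (SD, n = 5 each). At day 5 Abcb10-null replicate 4 was at -6.97 and the other 4 of its group at -10.6 to -9.15. The sum is mostly mt-Co1, and against the geometric mean of the 6 the order of the genotypes turned at days 0 and 5, with -3.25 ± 0.343 for WT and -2.65 ± 0.331 for Abcb10-null cells at day 0 and means of -3.91 and -3.33 at day 5. A ratio within a library shows unequal change and not which of its terms changed. Whether the mt-Nd6 counts also hold heavy-strand reads is not known, because the strand setting of the counting is not given.

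**Figure D5:**
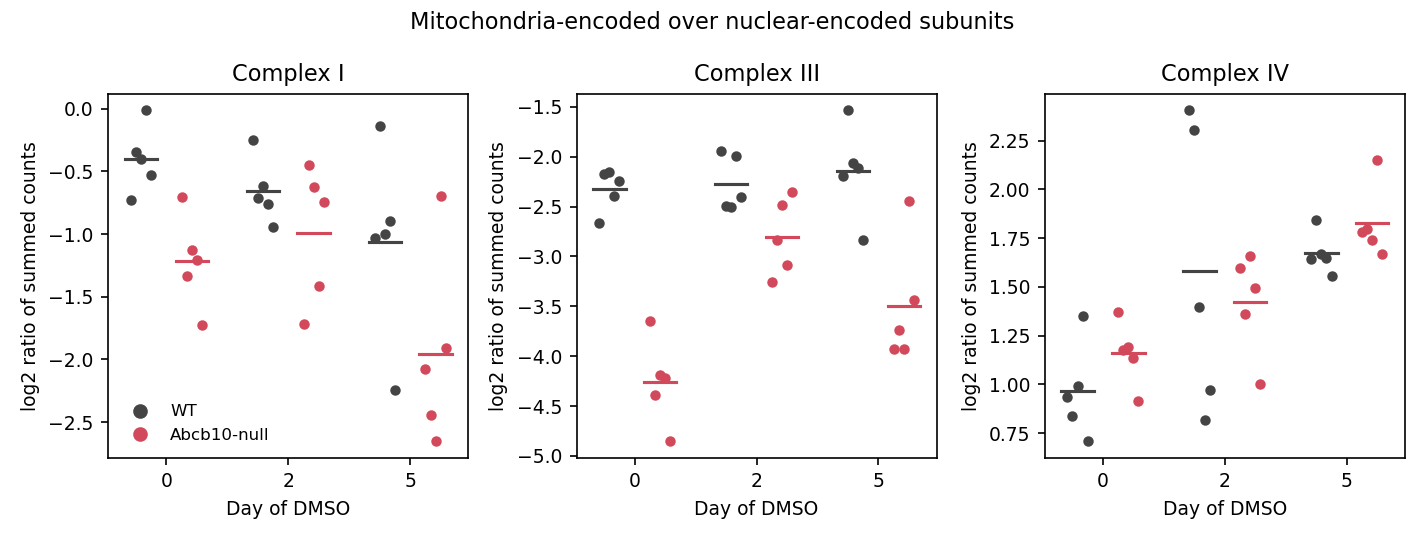
Log2 ratio of the summed counts of mitochondria-encoded to nuclear-encoded subunits of complexes I, III and IV (y axis) by day of DMSO (x axis), with WT in dark and Abcb10-null in red, a point per library and a bar at the mean of 5. For complex III the Abcb10-null libraries of day 0, with a mean of -4.26, lie below all WT libraries, while for complex IV the genotypes overlap at every day.

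Complexes I, III and IV join proteins of both genomes, and the 2 sets of mRNAs were compared within each library as a description. For complex III, mt-Cytb over 9 nuclear-encoded subunits was at -2.33 ± 0.213 on the log2 scale for WT and -4.26 ± 0.435 for Abcb10-null cells at day 0, at -2.27 ± 0.278 and -2.80 ± 0.383 at day 2, and at -2.15 ± 0.464 and -3.50 ± 0.621 at day 5. For complex I, the 5 mitochondria-encoded over 7 nuclear-encoded core subunits were at -0.40 ± 0.263 and -1.22 ± 0.369 at day 0, at -0.65 ± 0.258 and -0.99 ± 0.547 at day 2 and at -1.06 ± 0.755 and -1.96 ± 0.764 at day 5. For complex IV, mt-Co1 over 10 nuclear-encoded subunits was at 0.96 ± 0.241 and 1.158 ± 0.165 at day 0, at 1.58 ± 0.741 and 1.42 ± 0.261 at day 2 and at 1.67 ± 0.105 and 1.83 ± 0.186 at day 5. The Abcb10-null mean of this ratio was thus above the WT mean at days 0 and 5 and below it at day 2, and the genotypes overlapped at each day. In WT at day 2 this last ratio was at 2.41 and 2.31 in replicates 1 and 2 and at 0.82 to 1.40 in the other 3, a split of the same libraries as for mt-Nd2.

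The nuclear-encoded partners had smaller fold changes at day 0 than mt-Cytb and mt-Nd2. Counts in the lists that follow stand beside 2550 genes higher and 2092 lower of 12912 tested at day 0, 1944 higher and 2207 lower of 13053 at day 2, and 2509 higher and 2260 lower of 12676 at day 5. Of the 9 complex III subunits, 5 were lower in Abcb10-null cells in edgeR and none higher, the median log2 fold change being -0.16, and the largest were Uqcr11 at -0.41, Uqcrb at -0.37, Uqcr10 at -0.35 and Uqcrh at -0.34. Of the 10 complex IV subunits, 7 were lower and none higher, with a median of -0.35, led by Cox7c at -0.52, Cox7b at -0.46, Cox7a2 at -0.40 and Cox6b1 at -0.36. Of the 7 complex I core subunits, Ndufv1, the NADH-binding subunit, was lower at -0.31 and Ndufs1 higher at 0.17. The direction in complex IV was thus downward for most nuclear-encoded subunits while mt-Co1 was at -0.06.

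At day 2 none of the complex III and IV subunits passed in edgeR, and Ndufs1 and Ndufs3 of complex I were higher, at 0.41 and 0.32. At day 5 complex IV was mixed, with 5 of 10 lower, among them Cox6b1 at -0.91, Cox7a2 at -0.71 and Cox5a at -0.58, and Cox5b higher at 0.47. For complex III, Uqcr11 was lower at -0.87, and Uqcrq and Uqcrc2 were higher at 0.59 and 0.50. Ndufv2 of complex I was higher at 0.30.

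The genes that copy and transcribe mitochondrial DNA were described from a list of 16, chosen from general knowledge. At day 0, 2 of the 16 were higher and 4 lower in Abcb10-null cells, the median log2 fold change being -0.08, so that the 6 called in either direction were near the 36.0% of all genes. The largest were Mterf1b, a relative of the mitochondrial termination factor, at -0.91, Primpol, a primase-polymerase, at 0.56, Ssbp1, the mitochondrial single-stranded DNA-binding protein, at -0.47 and Polrmt, the mitochondrial RNA polymerase, at -0.44. Mterf1b has a close paralog, Mterf1a, and the counts of such a pair may be split between them.

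At day 2, 6 of the 16 were higher and none lower, in number again near the 31.8% of all genes called in either direction, with a median of 0.22 beside -0.0022 over all genes tested, led by the nuclease Mgme1 at 1.10, the elongation factor Tefm at 0.84, the packaging and initiation factor Tfam at 0.73 and the initiation factor Tfb2m at 0.62. At day 5, 5 were higher and 3 lower, with a median of 0.36, and the largest were Mterf2 at -0.79, the polymerase subunit Polg2 at -0.67, Mterf3 at 0.59 and Mgme1 at 0.58. From day 0 to day 5, 7 of the 16 fell and 3 rose in WT and 8 fell and 5 rose in Abcb10-null cells, where 71.2% and 67.2% of all genes changed, led by the topoisomerase Top1mt at -2.85 and -2.12 and Ssbp1 at -1.95 and -1.76.

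Of 22 genes for the cutting, modification, stability and decay of mitochondrial RNA, 20 were tested. At day 0, 6 were lower and 1 higher in Abcb10-null cells, with a median of -0.16. They were led by Mrpl12, a ribosomal protein that also binds the mitochondrial RNA polymerase, at -0.55, Lrpprc, which stabilizes heavy-strand mRNAs, at -0.46, Tbrg4 of the FASTK family at -0.41 and Pnpt1, an exoribonuclease, at 0.35. At day 2, 5 were higher and 2 lower, among them Tbrg4 at -1.14, the RNase P subunit Trmt10c at 1.01, the rRNA methyltransferase Tfb1m at 0.70 and Mrm3 at 0.67. At day 5, 8 were higher and 2 lower, led by Mrm3 at 1.12, Mrm1 at -0.90, the tRNA 3′ processing enzyme Elac2 at 0.74 and Hsd17b10 of RNase P at 0.71. Over the whole course, 17 of the 20 fell in WT and 14 in Abcb10-null cells, with medians of -1.15 and -0.80, while 4416 of 12723 genes fell in WT and 4297 of 12915 in Abcb10-null cells, with medians of 0.023 and 0.014 over all genes tested. The interaction of genotype and day from day 0 to day 2 was positive for 7 of the 16 genes of the former list and 8 of these 20 and negative for none, with medians of 0.54 and 0.44 beside 0.019 over all genes tested, of which 1679 of 13980 had a positive one.

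Of 9 regulators of mitochondrial biogenesis, 8 were tested, and 3 were lower in Abcb10-null cells at day 0, Pprc1 at -0.42, Myc at -0.39 and Nrf1 at -0.17. At day 2 Pprc1 was at -1.79 and Ppargc1b at -1.58, both lower, and Gabpa higher at 0.57. At day 5 Myc, Esrra and Yy1 were higher, at 0.84, 0.84 and 0.36. Of the 3 nuclear-retained RNAs, Kcnq1ot1 was lower in Abcb10-null cells at all 3 days, at -0.46, -2.08 and -1.39, and Neat1 higher at day 0, at 0.88, and Malat1 did not pass between the genotypes.

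Across the 30 libraries the 6 transcripts other than mt-Co1 varied together. As a description, with libraries that share genotype, day and depth, Pearson's r of log2 CPM was positive for every pair of these 6, from 0.33 for mt-Nd4 and mt-Nd6, and was 0.87 between mt-Nd2 and mt-Cytb, 0.85 between mt-Nd4 and mt-Cytb and 0.78 between mt-Nd1 and mt-Nd6. For mt-Co1 it was between -0.27 and 0.12 with each of the 6 others. Taken over deviations from the group means, r of mt-Co1 was 0.48 with mt-Nd1 and 0.45 with mt-Nd6 and between -0.15 and 0.12 with the other 4. Of 8544 genes outside mitochondrial DNA with a mean of at least 10 CPM, the 5 most like the mean of the 6 heavy-strand transcripts were Anp32b (r = 0.84), Eif5b (0.81), Gm26316 (0.78), Tpgs2 (0.76) and Cdk11b (0.75). The 5 most like mt-Nd6 were Ccdc34 (0.67), Mboat1 (0.64), Snrpd3 (0.63), BC005624 (0.63) and Dpm2 (0.62). By Spearman's rho, 4 of the first 5 and 1 of the second 5 were again among the top 5.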

How the data were processed

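RNA of 30 libraries was made by the authors with a kit that removes cytoplasmic and mitochondrial rRNA and globin RNA and keeps the strand. The deposited values are raw counts per gene, which the authors made with STAR 2.6.1b and featureCounts 1.6.3 on GRCm38, per the labels. The handling of strand and of reads with several matches is not given in the sources used here. Each of the 54532 rows was matched by Ensembl ID to GENCODE M21 (GRCm38), and 37 rows, with 0.0116% of the counts, had no match and stayed in the tests. Counts per library ranged from 9906783 to 20157768, which makes counting error small for all 7 transcripts.

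Genes passing filterByExpr were tested with edgeR 4.0.16 (TMM, glmQLFit, glmQLFTest) in R 4.3.3, only the groups compared entering a fit, with a call at a Benjamini-Hochberg adjusted p under 0.05 over all genes tested. The study used DESeq2, which was an alternative here (1.42.0). SE was taken as the absolute log2 fold change over the square root of F, and intervals are 95%. The scripts were tested on simulated data. The alternatives were DESeq2, its size factors in edgeR, library totals, factors from nuclear genes, a lenient (1 count) and a strict (10 counts in every library) filter, all 30 libraries in one fit, the replicate block and leaving out each library. Sums and ratios over the 7 and levels per length were described without a test.

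The 7 transcripts, the 11 gene lists and the tests were chosen with earlier results of these data known. Named were the 7 transcripts, Abcb10, up to 4 genes per mitochondrial list and comparison with the largest log2 fold change among those called with a mean of at least 1 CPM, and the 5 genes most like each pattern. Other genes were named to complete a count. Replicate libraries differed by more than sampling noise (chi-square per degree of freedom of at least 6.48). The labels call them biological replicates but not how they were raised, so p-values measure the spread between these libraries. Sequences are from the GENCODE M21 transcripts, and a window counts as shared where all 51 bases occur in an annotated nuclear transcript on either strand.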

Additional observations from a re-analysis of the deposited data

Results flagged for a closer look

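Of 72 groups of 5 libraries examined for a library far from the others, 8 held one, where chance gives about 1 in 20 for independent groups. These groups reuse the same libraries for transcripts that vary together, so they are not independent. Every flagged library was Abcb10-null replicate 4 or WT replicate 5 of day 5. At day 5, Abcb10-null replicate 4 was far above its group for mt-Nd2 at 46.1 CPM (others 18.4 to 22.7), mt-Nd4 at 36.2 CPM (others 14.6 to 20.8), mt-Nd5 at 99.5 CPM (others 45.8 to 50.6) and mt-Nd6 at 87.5 CPM (others 5.83 to 15.7). The share of its counts in the 7 transcripts was 1.08% (others 0.790% to 0.872%), and its log2 ratio of mt-Co1 to the nuclear-encoded complex IV subunits was 2.15 (others 1.67 to 1.80). WT replicate 5 of day 5 was far below its group for mt-Nd1 at 189 CPM (others 326 to 370.3) and for mt-Cytb at 268 CPM (others 413 to 455).

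The change between days differed between the genotypes, by the interaction in edgeR, for mt-Nd1 at 0.83 (adjusted p = 0.0264), mt-Nd2 at 1.41 (adjusted p = 0.0427), mt-Nd4 at 1.03 (adjusted p = 0.0162) and mt-Cytb at 1.66 (adjusted p = 0.000674) from day 0 to day 2, and for mt-Cytb at 0.83 (adjusted p = 0.0476) from day 0 to day 5. When 1 library or the pair of these day-5 libraries was omitted, the last of these was called in 7 of 21 fits, and it was called under 4 of the 8 other alternatives. Of the calls from day 0 to day 2, those of mt-Cytb and mt-Nd4 were made in all 20 fits without 1 library. Those of mt-Nd1 and mt-Nd2 were made in 13 and 8 of these fits. The sign is that of a higher change in Abcb10-null cells.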

How the results depend on the processing

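The 6 calls of day 0 between the genotypes were made under all alternatives but the fit of all 30 libraries, which called 4 of the 7 and 1584 genes in place of 4642. Counts of the 7 called that moved by over 1.5 times were as follows. With every gene of at least 1 count kept, the count was 1 and 5 between the genotypes at days 2 and 5, 4 and 4 in WT from day 0 to 2 and from day 2 to 5, 5 in Abcb10-null cells from day 0 to 5, and 4 and 2 for the interactions from day 2 to 5 and from day 0 to 5. In WT it was 2 from day 0 to 2 with DESeq2 and library totals, and 2 from day 2 to 5 with DESeq2, library totals, the strict filter, all 30 libraries and without the pair of day-5 libraries. For the interaction from day 0 to 2 it was 1 with library totals and 2 with all 30 libraries, and from day 0 to 5 it was 0 with DESeq2's size factors in edgeR, library totals, the strict filter, all 30 libraries and without the pair. Without that pair (Abcb10-null replicate 4 and WT replicate 5, added after seeing the data) the count was 6 between the genotypes at day 5, with mt-Nd6 reversed to -1.20 (-1.001 to 0.59 without any 1 library), 5 in Abcb10-null cells from day 0 to 5 and 3 for the interaction from day 2 to 5. Of all genes, 5501 of 12715, 8822 of 13064 and 1161 of 14253 passed in these fits. Within a genotype a fit without the pair leaves out 1 library, and counts over all genes were not kept for the other fits without 1 library. With all libraries kept, mt-Nd6 at day 5 ran from -0.32 to 0.37 under the other alternatives.

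Smaller moves were also seen. In WT from day 0 to 5, 6 of the 7 were called with every gene of at least 1 count kept (mt-Cytb and mt-Nd4 added), 5 with the replicate block (mt-Cytb added) and 3 with all 30 libraries (mt-Nd6 lost). With all 30 libraries mt-Nd5 was called between the genotypes at day 5 and lost in Abcb10-null cells from day 0 to 5, and with the replicate block mt-Nd2 was lost in Abcb10-null cells from day 2 to 5.

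Leaving out 1 library at a time gave counts of 0 to 1 at day 2 and 3 to 5 at day 5 between the genotypes, 1 to 4 (day 0 to 2), 1 to 2 (day 2 to 5) and 4 to 6 (day 0 to 5) in WT, 1 to 3, 2 to 5 and 2 to 5 in Abcb10-null cells from day 0 to 2, day 2 to 5 and day 0 to 5, and 2 to 4, 0 to 1 and 0 to 1 for the interactions from day 0 to 2, day 2 to 5 and day 0 to 5. The correlation of deviations was over 0.1 in 8 of 75 pairs of libraries with the same replicate number (-0.26 to 0.43, median -0.014). Pairs with different numbers were not examined, so this cannot decide whether the numbers pair the libraries. With the replicate block the count was 2 in WT for day 0 to 2 and for day 2 to 5 and 1 in Abcb10-null cells for day 0 to 2, and 2592 genes in place of 3968 were called in Abcb10-null cells from day 2 to 5. The interaction from day 2 to 5 called 657 genes, 1256 with DESeq2, 1705 with all 30 libraries and 1161 without the pair. Library totals shifted the median of all genes in WT from day 0 to 2 from 0.0096 to 0.22, with 5414 genes higher and 2719 lower in place of 4049 and 3936. DESeq2 gave no adjusted p for mt-Nd6 in 3 comparisons. Without mt-Co1 the share of counts was 0.157%, 0.131% and 0.10% in WT and 0.0754%, 0.110% and 0.0524% in Abcb10-null cells at days 0, 2 and 5, and with the geometric mean the difference of the mt-Nd6 ratio (Abcb10-null minus WT) was 0.61 at day 0 and 0.58 at day 5, in place of -0.32 and -0.19. The cause was not tested.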
